A study of Mus musculus with 8 samples.

Results

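MHC class I molecules carry peptides cut from proteins made inside a cell to its surface, where CD8 T cells read them and NK cells sense their absence. A heavy chain pairs with beta-2-microglobulin, peptides are cut by the proteasome, and the TAP transporter moves them into the endoplasmic reticulum, where tapasin holds the empty molecule until a peptide binds. Interferons raise most of these genes and exchange the catalytic subunits of the constitutive proteasome for inducible ones, which gives the immunoproteasome, and in lung, epithelium, endothelium and leucocytes all carry class I. The 10 genes described here are the heavy chains H2-K1 and H2-D1, the light chain B2m, the transporter subunits Tap1 and Tap2, tapasin (Tapbp), the inducible catalytic subunits Psmb8, Psmb9 and Psmb10, and Nlrc5, the transactivator of class I genes. They were chosen by symbol, each mapped from 1 mouse Ensembl gene identifier, out of 55416 identifiers counted, and all 10 were among the 18560 genes that passed the filter on low counts and were tested.

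The samples were 8 lungs of C57BL/6 mice (C57BL/6J in the study's methods) aged 6 to 8 weeks, female by the study's methods, taken 24 h after a lipopolysaccharide (LPS) or saline injection, 1 mouse to a library. The 3 control mice (control 1, 2 and 4) had DMSO intravenously and saline into the peritoneum 0.5 h later. The 3 LPS mice (LPS 1, 6 and 7) had 35 mg/kg LPS into the peritoneum, and the methods mention no DMSO for them. The 2 dual-treated mice (LPS_YW3-56 2 and 5) had 10 mg/kg YW3-56, an inhibitor of protein arginine deiminases, in DMSO 0.5 h before the same LPS dose, and while the methods state 3 mice to a group, a figure legend of the study, like the labels, gives 2 for this one. The model is a lethal dose read at 1 time point, only 1 side of the lung was used, and the labels name no batch. RNA was sequenced and reads were counted per gene, with 19061949 to 20908608 counts in a library. Levels are CPM, a gene's counts relative to its library total, scaled between libraries by the trimmed mean of M values (TMM), and a gene is said to rise or fall where edgeR's quasi-likelihood test gave a Benjamini-Hochberg adjusted p under 0.05 over all 18560 genes. Differences are log2 fold changes with their standard error (SE) from 3 control, 3 LPS and 2 dual-treated mice. All 3 comparisons share libraries, so their values stand side by side and are not independent of each other.

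Lung markers were high in all 8 libraries. Surfactant gene Sftpc lay between 8322 CPM in LPS 7 and 24536 CPM in control 4, and the club cell gene Scgb1a1 between 22675 CPM in dual-treated mouse 2 and 65313 CPM in LPS 1. A pair of LPS libraries stood apart. The 15 listed genes of squamous epithelium summed to 788 CPM in LPS 6 and 2142 CPM in LPS 7, against 39.6 CPM in LPS 1, 44.9 to 56.4 CPM in controls and 57.8 to 84.5 CPM in dual-treated mice. Of the 14 that were tested, 9 rose and 1 fell in LPS against control mice, and Krt13, the most abundant of them in LPS mice, stood at 286 and 887 CPM in LPS 6 and 7 and at 0.9 CPM or less in each of the other 6 libraries. The 12 listed genes of skeletal muscle summed to 523 CPM in LPS 6 and 1336 CPM in LPS 7, against 21.5 CPM in LPS 1 and 7.2 to 31.8 CPM in the other 5 libraries, with Acta1, the most abundant in LPS mice, at 210 and 600 CPM in LPS 6 and 7 and at 0.7 CPM or less elsewhere. All 10 tested muscle genes rose in LPS mice. Without LPS 6 and 7, 0 genes of either list rose, and with 1 mouse left out 2 to 11 squamous and 6 to 10 muscle genes did. Squamous and muscle transcripts were thus abundant in LPS 6 and 7. In LPS 1 the squamous sum lay below each control, and the muscle sum lay within the range of controls. Without LPS 6 and 7 the median log2 fold change against control was -2.63 for squamous and -0.19 for muscle genes. The class I results are given with and without this pair. LPS 1 had the highest level of all 10 class I genes among the LPS mice, or of 7 of 10 by library size alone, and LPS 7 the lowest of 9 under either scaling.

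The heavy chains were among the more abundant transcripts and differed between the 3 groups without overlap. H2-K1, which encodes a classical heavy chain, stood at 1563, 1270 and 1461 CPM in control mice 1, 2 and 4, at 4303, 3472 and 2856 CPM in LPS mice 1, 6 and 7, and at 2706 and 2311 CPM in dual-treated mice 2 and 5. Each LPS mouse was above each dual-treated mouse, LPS 7 only narrowly above dual-treated mouse 2, and each dual-treated mouse was above each control. H2-D1, the other classical heavy chain gene of this strain, stood at 1830, 1572 and 1870 CPM in controls, at 6175, 5218 and 3888 CPM in LPS mice, and at 3154 and 3069 CPM in dual-treated mice. B2m, the light chain that every heavy chain needs, stood at 839, 663 and 762 CPM in controls, at 2715, 2389 and 1573 CPM in LPS mice, and at 1364 and 1278 CPM in dual-treated mice. For all 3 genes LPS mice were highest, dual-treated mice intermediate and controls lowest, and LPS 7 was the LPS mouse closest to the dual-treated pair. In LPS against control mice H2-K1 rose with a log2 fold change of 1.31 (SE 0.174, adjusted p 0.000127), H2-D1 of 1.54 (SE 0.181, adjusted p 5.7e-05) and B2m of 1.56 (SE 0.198, adjusted p 9.36e-05). Dual-treated against control mice gave 0.81 (SE 0.189, adjusted p 0.019) for H2-K1, 0.82 (SE 0.195, adjusted p 0.0201) for H2-D1 and 0.81 (SE 0.214, adjusted p 0.0321) for B2m. Against LPS mice the dual-treated mice were lower, with -0.50 (SE 0.194, adjusted p 0.0496) for H2-K1, -0.71 (SE 0.202, adjusted p 0.0131) for H2-D1 and -0.75 (SE 0.221, adjusted p 0.0156) for B2m. The H2-K1 fall sat at the threshold and was lost under 8 of 13 alternatives, where its log2 fold change ran from -0.16 to -0.79 and its adjusted p from 0.0051 to 0.389. The B2m fall was lost under 2 of 13 alternatives, with a log2 fold change from -1.05 to -0.41 over all 13. The H2-D1 fall was lost under 1 of 13, with a range from -1.0 to -0.37. In whole lung, fewer cells of a type and less RNA per cell cannot be told apart.

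Peptide loading genes had greater differences than the heavy chains and B2m between LPS mice and either other group, though Tap2 and Tapbp had smaller ones between dual-treated and control mice. Tap1, a subunit of the peptide transporter, stood at 62.7, 54.4 and 57.5 CPM in controls, at 949, 811 and 740 CPM in LPS mice, and at 133 and 92.2 CPM in dual-treated mice. Tap2, its partner subunit, stood at 66.3, 64 and 73.0 CPM in controls, at 286, 238 and 219 CPM in LPS mice, and at 102 and 86.2 CPM in dual-treated mice. Tapbp, which encodes tapasin, stood at 151, 151 and 173 CPM in controls, at 1002, 922 and 793 CPM in LPS mice, and at 300 and 208 CPM in dual-treated mice. The dual-treated mice lay much nearer the controls than the LPS mice for these 3 genes, with no overlap between any pair of groups. Tap1 was 14.3-fold higher in LPS than in control mice (log2 fold change 3.84, SE 0.172, adjusted p 4.64e-07), the greatest difference of the 10. It was 7.4-fold lower in dual-treated than in LPS mice (-2.89, SE 0.194, adjusted p 6.62e-06) and 1.94-fold above control in dual-treated mice (0.95, SE 0.171, adjusted p 0.00596). Tap2 rose 3.65-fold in LPS mice (1.87, SE 0.127, adjusted p 2.44e-06), was 2.63-fold lower in dual-treated than in LPS mice (-1.39, SE 0.144, adjusted p 4.84e-05), and had the smallest rise over control in dual-treated mice, 1.39-fold (0.47, SE 0.137, adjusted p 0.0443). Tapbp rose 5.72-fold in LPS mice (2.52, SE 0.163, adjusted p 1.97e-06), was 3.57-fold lower in dual-treated than in LPS mice (-1.84, SE 0.184, adjusted p 4.17e-05), and 1.6-fold above control in dual-treated mice (0.68, SE 0.171, adjusted p 0.0256). That last call of Tapbp was lost without control 1, 2 or 4 or dual-treated mouse 2, with 0.36 without the latter and adjusted p from 0.00188 to 0.251 over 12 alternatives. Tap1 over control in dual-treated mice was 0.63 without dual-treated mouse 2 and still passed (adjusted p 0.0481, the highest over its 12 alternatives, the lowest being 4.46e-06). Other annotated genes share 52.8% of the exon bases of Tapbp, among them Zbtb22 on the same strand, 26.8% of H2-K1, 24.2% of H2-D1, 14.6% of Tap2 and of Psmb8, and 0.918% of Nlrc5. Tap1 (12.4%) and Psmb9 (19.6%) share exon bases with each other on opposite strands. Part of these levels is uncertain, because the sources say neither whether counting used the strand nor how shared reads were assigned.

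The inducible proteasome subunits rose by unequal amounts. Psmb8, which takes the place of Psmb5, stood at 47.1, 46.0 and 46.0 CPM in controls, at 256, 235 and 179 CPM in LPS mice, and at 90.6 and 83.7 CPM in dual-treated mice. Psmb9, which takes the place of Psmb6, stood at 42.9, 35.2 and 41.4 CPM in controls, at 94.9, 88.0 and 66.0 CPM in LPS mice, and at 56.2 and 67.3 CPM in dual-treated mice. Psmb10, which takes the place of Psmb7, stood at 59.9, 63.4 and 72.8 CPM in controls, at 229, 192 and 145 CPM in LPS mice, and at 107 and 115 CPM in dual-treated mice. Psmb9 was the 1 gene of the 10 whose dual-treated and LPS mice overlapped in TMM-scaled CPM, since dual-treated mouse 5 lay above LPS 7. By library size alone H2-K1 and B2m overlapped too, with LPS 7 below dual-treated mouse 2. Psmb8 rose 4.81-fold in LPS mice (2.27, SE 0.134, adjusted p 1.34e-06), was 2.56-fold lower in dual-treated than in LPS mice (-1.36, SE 0.15, adjusted p 6.76e-05) and 1.88-fold higher than in controls (0.91, SE 0.143, adjusted p 0.00299). Psmb9 rose 2.08-fold in LPS mice, the least of the 10 (1.06, SE 0.148, adjusted p 0.000174), was 1.34-fold lower in dual-treated than in LPS mice (-0.43, SE 0.165, adjusted p 0.0482) and 1.55-fold higher than in controls (0.63, SE 0.163, adjusted p 0.0281). Its fall against LPS mice was lost under 7 of 13 alternatives. Over all 13 its log2 fold change ran from -0.63 to -0.09 and its adjusted p from 0.00546 to 0.594. Psmb10 rose 2.88-fold in LPS mice (1.53, SE 0.16, adjusted p 2.77e-05), was 1.69-fold lower in dual-treated than in LPS mice (-0.76, SE 0.179, adjusted p 0.00518) and 1.7-fold higher than in controls (0.77, SE 0.174, adjusted p 0.0168).

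Nlrc5, the factor that drives class I promoters, had the second greatest difference between LPS and control mice. It stood at 19.8, 17.9 and 22 CPM in controls, at 255, 179 and 179 CPM in LPS mice, and at 54.5 and 43.0 CPM in dual-treated mice. Every LPS mouse was more than 3 times any dual-treated mouse, and every dual-treated mouse was above every control. The rise in LPS mice was 10.2-fold (3.36, SE 0.175, adjusted p 7.96e-07), the difference of dual-treated from LPS mice 4.19-fold lower (-2.07, SE 0.192, adjusted p 2.69e-05), and that of dual-treated from control mice 2.45-fold higher (1.29, SE 0.18, adjusted p 0.00168).

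**Figure D1:**
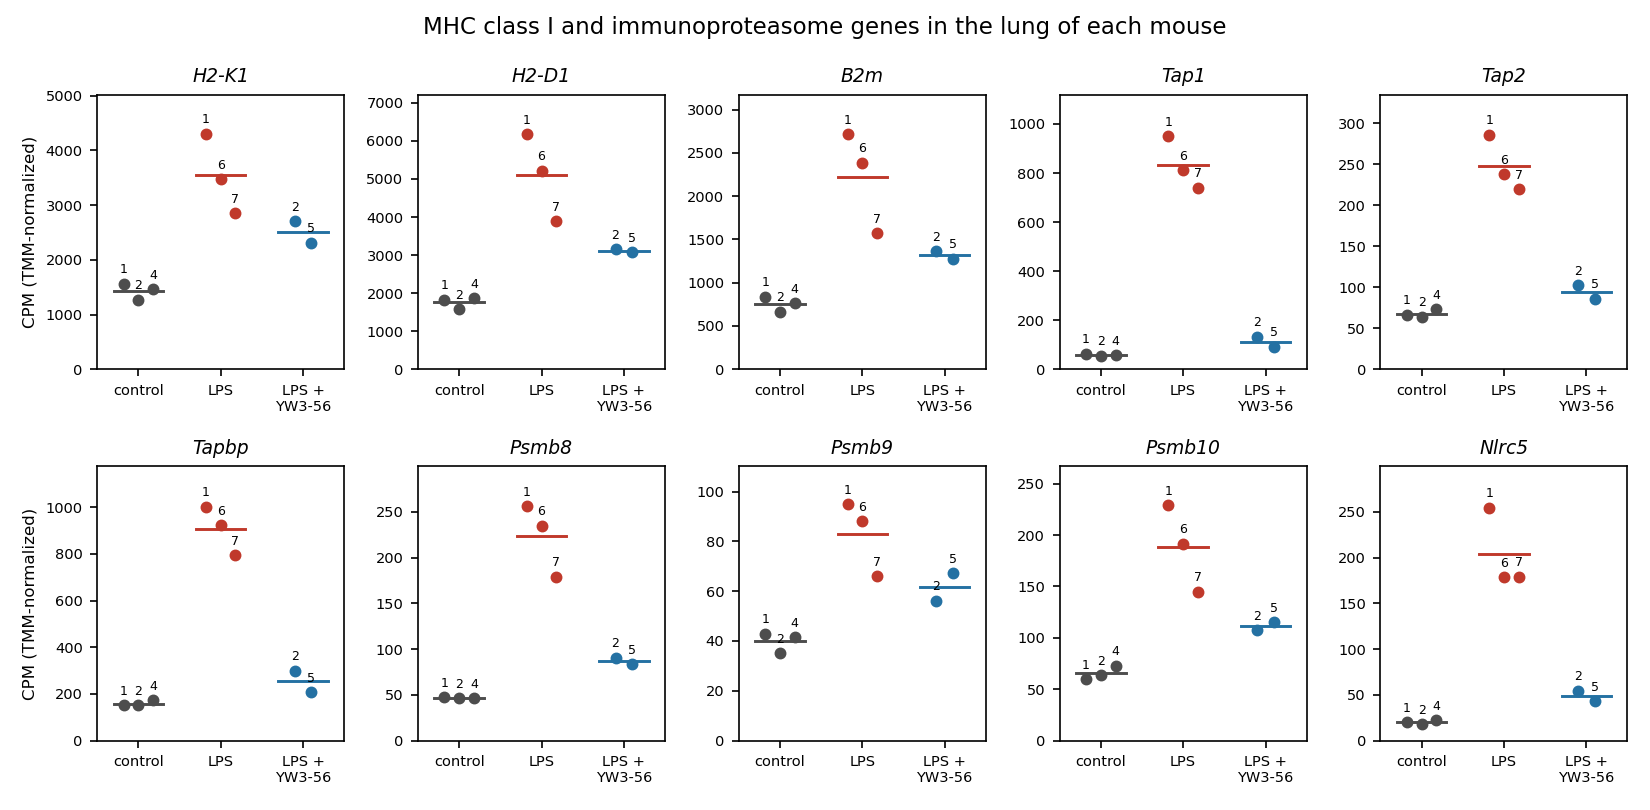
TMM-scaled CPM of the 10 genes in each lung library, on linear axes from 0, with 1 point a mouse (replicate number above it), bars at group means, and 3 control, 3 LPS and 2 dual-treated mice. LPS mice lie above controls for all 10 genes, and dual-treated mice lie between the groups except at Psmb9, where dual-treated mouse 5 is above LPS 7.

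All 10 genes rose in LPS against control mice, where 32.6% of all tested genes rose and 33.9% fell, with a median log2 fold change of 1.71 for the 10 and -0.01 for all tested genes. All 10 were higher in dual-treated than in control mice, where 9.13% of tested genes rose and 7.02% fell, with medians of 0.81 and 0.0042. All 10 fell in dual-treated against LPS mice, where 27.4% of tested genes fell and 31.7% rose, with medians of -1.06 and 0.06. Groups did not overlap for 10 of 10 genes in LPS above control (34.7% of tested genes), 10 of 10 in dual-treated above control (26.1%) and 9 of 10 in dual-treated below LPS (32.9%). The study's own criterion was more than a 2-fold change with p under 0.05, from DESeq2. Here it was applied to the p before adjustment of the edgeR test. By it 10 of 10 rose in LPS against control mice (18.3% of tested genes) and 1 of 10, Nlrc5, in dual-treated against control mice (7.04%). In dual-treated against LPS mice 5 of 10, namely Tap1, Tap2, Tapbp, Psmb8 and Nlrc5, fell (14.7%).

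Without LPS 6 and 7, the mice with squamous and muscle transcripts, the 10 class I genes had a median log2 fold change of 1.97 against control. In dual-treated against LPS mice their median was then -1.30. These values rest on LPS 1 alone. Calls of a rise in dual-treated over control mice were less secure: leaving out control 1, 2 or 4 kept 4, 3 and 4 of the 10. Tap1, Psmb8 and Nlrc5 passed under each of these omissions. The median was 0.86, 0.74 and 0.81 without control 1, 2 and 4, against 0.81 with all mice. Without dual-treated mouse 2 or 5 it was 0.73 and 0.86. The share of all tested genes called under these omissions is not given, so the counts cannot be set beside it. Whether the lost calls are particular to the 10 genes was not tested. Scaling matters to the fall in dual-treated mice, because TMM factors were 0.81 to 0.93 in LPS libraries and 1.06 to 1.11 in the others. With library size alone, the median of all tested genes shifted to -0.29 in LPS against control mice and to 0.38 in dual-treated against LPS mice. The split of calls then moved to 23.4% higher and 42.2% lower in LPS against control mice and to 42.5% higher and 17.4% lower in dual-treated against LPS mice. Under that scaling 10 class I genes rose in LPS mice, with a median of 1.42, and 6 fell in dual-treated against LPS mice, with a median of -0.72, the falls of H2-K1, H2-D1, B2m and Psmb9 being lost.

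As a share of all counts, with no scaling between libraries, the 10 genes took 0.502%, 0.424% and 0.485% in controls 1, 2 and 4, 1.32%, 1.23% and 0.988% in LPS 1, 6 and 7, and 0.894% and 0.801% in dual-treated mice 2 and 5. The LPS mice took the most, and no groups overlapped. H2-K1, H2-D1 and B2m made up most of this, with 0.377% to 0.454% of counts in controls, 0.773% to 1.07% in LPS mice and 0.725% to 0.801% in dual-treated mice, where LPS 7 lay below dual-treated mouse 2.

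Per kilobase of annotated exon, the 10 levels spanned a wide range and their order changed with LPS. The order between genes depends on the length used, which here was all annotated exon bases of a gene. These were 3800 for Psmb9, whose canonical transcript has 1353 bases, and 8493 for Nlrc5, with 7578. They were 3185 for H2-K1, with 1619, and 2992 for H2-D1, with 2117. Other lengths could place Psmb9 against Nlrc5, or H2-K1 against H2-D1, differently. In controls H2-D1 was the most abundant at 587 ± 54.1 CPM per kb (SD, n = 3), followed by H2-K1 at 449 ± 46.8 and B2m at 358 ± 41.9. Psmb10 at 37.8 ± 3.86 and Tapbp at 35.9 ± 2.87 CPM per kb came next and overlapped. Tap2 at 14.2 ± 0.982 and Psmb8 at 13.6 ± 0.184 CPM per kb overlapped too, as did Psmb9 at 10.5 ± 1.08 and Tap1 at 9.69 ± 0.694, and Nlrc5 was lowest at 2.34 ± 0.242. By this measure the heavy chains and B2m thus stood far above the other genes of the 10. The whole span, from H2-D1 to the transactivator Nlrc5, was 251-fold. In LPS mice H2-D1 at 1702 ± 384, H2-K1 at 1113 ± 228 and B2m at 1057 ± 279 CPM per kb were still the top 3, each overlapping the next. Tapbp at 206 ± 23.9 CPM per kb came next, Tap1 at 139 ± 17.7 overlapped Psmb10 at 109 ± 24.3, Psmb8 at 65.4 ± 11.6 overlapped Tap2 at 52.0 ± 7.23, and Nlrc5 at 24 ± 5.14 overlapped Psmb9 at 21.8 ± 3.98. By this measure Tap1 had moved from below Psmb8 to above it, Psmb9 was now last, and the highest level was 78-fold above the lowest. In dual-treated mice (n = 2) the order was again near that of controls, with H2-D1 at 1040 ± 20, H2-K1 at 788 ± 87.8, B2m at 627 ± 28.9, Psmb10 at 64.3 ± 3.25, Tapbp at 57.6 ± 14.8, Psmb8 at 25.5 ± 1.43, Tap2 at 19.8 ± 2.37, Tap1 at 18.8 ± 4.82, Psmb9 at 16.2 ± 2.06 and Nlrc5 at 5.74 ± 0.959 CPM per kb. There Psmb10 overlapped Tapbp, Tap2 overlapped Tap1, and Tap1 overlapped Psmb9. The span was 181-fold.

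Ratios of inducible to constitutive subunits need no scaling between libraries, though their absolute size depends on the annotated exon length. Psmb8 over Psmb5 was 0.32, 0.352 and 0.352 in controls, 0.946, 0.92 and 0.977 in LPS mice, and 0.435 and 0.438 in dual-treated mice. This ratio separated all 3 groups, with log2 differences of 1.47 for LPS against control, 0.36 for dual-treated against control and -1.12 for dual-treated against LPS mice. Psmb9 over Psmb6 was 0.239, 0.19 and 0.216 in controls, 0.265, 0.264 and 0.265 in LPS mice, and 0.253 and 0.306 in dual-treated mice. LPS and dual-treated mice lay above controls for it and overlapped each other, with log2 differences of 0.31, 0.38 and 0.07 in the same order. Psmb10 over Psmb7 was 4.81, 4.79 and 5.96 in controls, 7.62, 7.04 and 7.1 in LPS mice, and 6.6 and 7.56 in dual-treated mice. Its log2 differences were 0.49, 0.45 and -0.04, and LPS and dual-treated mice overlapped again. In an exact two-sided permutation test, the smallest p that 3 against 3 or 3 against 2 mice allow is 0.1, so no ratio could reach 0.05. That smallest exact p was reached for Psmb8 over Psmb5 in all 3 comparisons and for Psmb9 over Psmb6 and Psmb10 over Psmb7 in LPS against control mice, each 0.18 after Benjamini-Hochberg adjustment over 9 tests. Exact permutation p was 0.2 (adjusted 0.257) for both latter ratios in dual-treated against control mice, and against LPS mice 0.7 (adjusted 0.787) for Psmb9 over Psmb6 and 0.8 (adjusted 0.8) for Psmb10 over Psmb7. These last differences changed sign with 1 mouse left out, to -0.06 for Psmb9 over Psmb6 without dual-treated mouse 5 and to 0.06 for Psmb10 over Psmb7 without dual-treated mouse 2.

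Neighbouring genes moved unequally. Of the 10 genes, 7 lie on chromosome 17 within 1352 kb, B2m lies on chromosome 2, and Psmb10 and Nlrc5 on chromosome 8. Psmb9, Tap1, Psmb8 and Tap2 lie side by side within 34.9 kb (chr17:34400960-34435829, GRCm39). Psmb9 runs on the minus strand and Tap1 on the plus strand from a shared start region, where the annotated genes overlap by 0.743 kb. Yet Tap1 rose 14.3-fold and Psmb9 2.08-fold in LPS mice. Tap1 over Psmb9 per kb, a ratio chosen after its values were seen and so given without a test, was 0.925, 0.98 and 0.879 in controls, 6.33, 5.83 and 7.1 in LPS mice, and 1.5 and 0.867 in dual-treated mice. Dual-treated mouse 5 lay below all 3 controls and dual-treated mouse 2 above them, and the exon bases that both genes share make the size of this ratio uncertain. Tap1 over Tap2, whose products form 1 transporter, was 0.75, 0.675 and 0.625 in controls, 2.63, 2.7 and 2.68 in LPS mice, and 1.03 and 0.848 in dual-treated mice, again chosen after its values were seen. All LPS mice were far above the rest. H2-D1 over B2m, chosen likewise, was 1.54 to 1.73 in controls, 1.54 to 1.74 in LPS mice and 1.63 and 1.69 in dual-treated mice, so the groups overlapped. H2-K1 over H2-D1, chosen likewise, was 0.734 to 0.802 in controls, 0.625 to 0.69 in LPS mice and 0.707 and 0.806 in dual-treated mice. H2-K1 over B2m, chosen likewise, was 1.23 to 1.27 in controls, 0.961 to 1.2 in LPS mice and 1.2 and 1.31 in dual-treated mice. All LPS mice lay below all controls for both H2-K1 ratios.

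**Figure D2:**
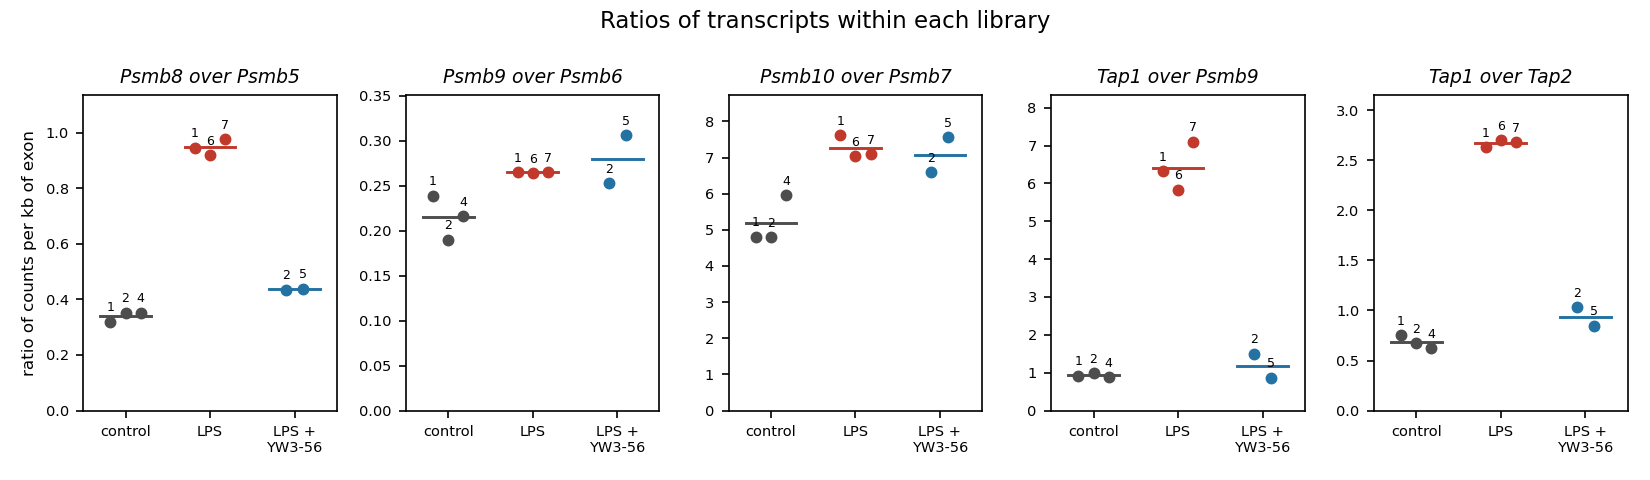
Ratios of counts per kb of exon within each library, on linear axes from 0, with 1 point a mouse (replicate number above it) and bars at the means of 3 control, 3 LPS and 2 dual-treated mice. Psmb8 over Psmb5 and Tap1 over Tap2 separate LPS mice from the rest, while Psmb9 over Psmb6 and Psmb10 over Psmb7 overlap between LPS and dual-treated mice.

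**Figure D3:**
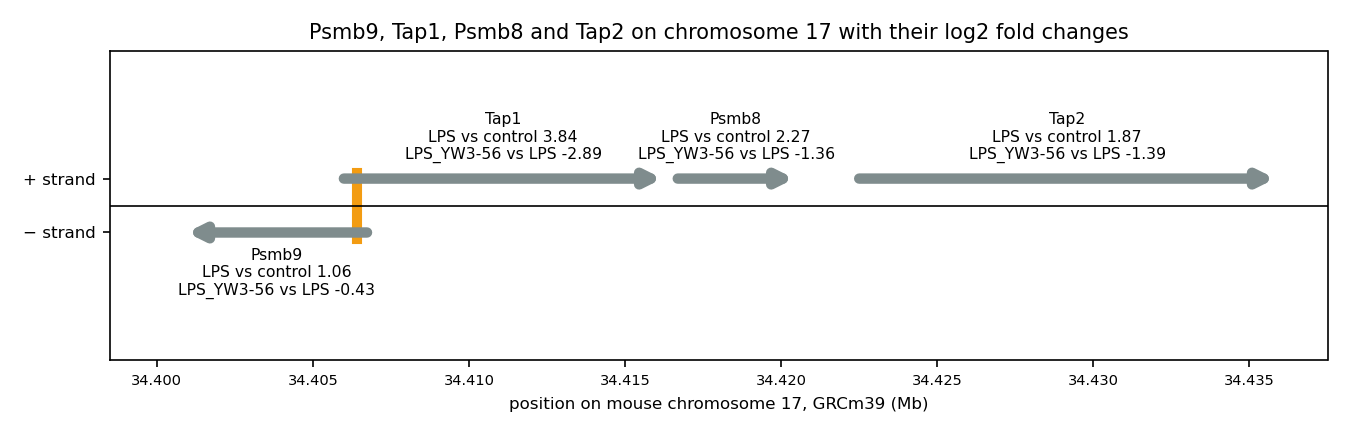
Psmb9, Tap1, Psmb8 and Tap2 on mouse chromosome 17 (GRCm39, Mb), with arrows in the direction of transcription and their log2 fold changes from 3 control, 3 LPS and 2 dual-treated mice. The orange box marks the bases that the promoter windows of Tap1 and Psmb9 share, and Tap1 has the greatest and Psmb9 the smallest LPS difference.

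Promoters are shown because these genes changed in the same directions, though by unequal amounts, and because class I promoters are known for a shared upstream module. RefSeq promoter sequences (build GRCm38.p6, from 250 bases before the gene start to 50 after it) held 8 of the 10 genes; Tap2 and Nlrc5 had no entry. Positions are exact matches of those sequences in GRCm39. Motifs were searched on both strands among 27025 genes as TGACG (the core of a cyclic AMP response element, found in 23% of all promoters), ATTGG (Y box, 41.1%), the kappa B consensus by name (9.55%), GAAANNGAA (interferon-stimulated response element-like, 9.76%) and TTCNNNGAA (gamma-activated site-like, 9.55%). TGACG and ATTGG stood together in 8.85% of all promoters and in 5 of the 8, those of H2-K1, H2-D1, B2m, Tap1 and Psmb9. ATTGG was also in the Tapbp window. The kappa B consensus was in H2-K1, H2-D1 and B2m, where it overlaps no other motif, GAAANNGAA in B2m, and TTCNNNGAA in Psmb8. A match describes letters only and shows no binding. The windows of Tap1 and Psmb9 share 275 of 300 bases, so their matches are mostly the same bases. The windows below, with motif matches of either strand in capitals, belong to H2-K1 (chr17:34219272-34219571, minus strand), H2-D1 (chr17:35481820-35482119, plus strand), B2m (chr2:121977918-121978217, plus strand) and Tap1 (chr17:34406280-34406579, plus strand).
H2-K1: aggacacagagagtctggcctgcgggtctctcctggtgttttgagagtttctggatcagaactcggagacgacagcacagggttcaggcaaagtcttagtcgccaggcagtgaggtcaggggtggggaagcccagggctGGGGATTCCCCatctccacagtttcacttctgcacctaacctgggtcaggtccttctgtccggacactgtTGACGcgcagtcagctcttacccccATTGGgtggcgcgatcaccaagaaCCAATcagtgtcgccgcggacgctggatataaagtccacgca
H2-D1: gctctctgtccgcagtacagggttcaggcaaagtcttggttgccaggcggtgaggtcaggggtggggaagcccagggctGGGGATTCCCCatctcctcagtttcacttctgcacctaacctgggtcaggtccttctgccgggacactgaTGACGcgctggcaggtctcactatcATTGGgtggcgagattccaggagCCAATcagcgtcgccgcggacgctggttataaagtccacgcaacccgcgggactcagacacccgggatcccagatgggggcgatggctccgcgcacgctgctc
B2m: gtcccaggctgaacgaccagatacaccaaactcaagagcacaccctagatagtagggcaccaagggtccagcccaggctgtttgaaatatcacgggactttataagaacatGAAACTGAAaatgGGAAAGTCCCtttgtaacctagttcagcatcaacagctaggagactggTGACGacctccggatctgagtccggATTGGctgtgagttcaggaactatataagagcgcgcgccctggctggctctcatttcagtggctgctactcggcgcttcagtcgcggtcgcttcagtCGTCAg
Tap1: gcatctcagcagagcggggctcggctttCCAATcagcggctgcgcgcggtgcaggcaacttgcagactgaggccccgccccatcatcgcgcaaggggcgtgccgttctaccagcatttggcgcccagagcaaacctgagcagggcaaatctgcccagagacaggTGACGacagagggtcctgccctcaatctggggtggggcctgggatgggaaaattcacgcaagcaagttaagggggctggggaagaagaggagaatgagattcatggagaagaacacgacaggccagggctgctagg
In H2-K1, H2-D1 and B2m a kappa B match, TGACG and ATTGG follow each other in this order, with TGACG and ATTGG on the printed strand and the kappa B match of B2m on the opposite strand only. H2-K1 and H2-D1 also hold ATTGG on the opposite strand further downstream, and B2m holds GAAANNGAA before the kappa B match and TGACG on the opposite strand near its end. The Tap1 window holds ATTGG on the opposite strand, upstream of TGACG.

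In LPS against control mice the other lists of the pathway had medians nearer 0 than the 10 genes. Of 15 tested class I and class I-like heavy chains outside the 10, 8 rose and 3 fell in LPS against control mice (median log2 fold change 0.92), 7 rose and 0 fell in dual-treated against control mice (0.66), and 2 rose and 8 fell in dual-treated against LPS mice (-0.67), with H2-T3 and Cd1d2 too low to test. The rises over control in dual-treated mice numbered 3 to 6 with 1 mouse of those groups left out. H2-Q4 stood at 314, 264 and 281 CPM in controls, at 1290, 939 and 973 CPM in LPS mice, and at 495 and 425 CPM in dual-treated mice, a log2 fold change of 1.90 in LPS mice (SE 0.152, adjusted p 5.63e-06). H2-T24 went the other way, at 21.0, 25.5 and 25.8 CPM in controls, 10.7, 8.43 and 10.4 CPM in LPS mice, and 46.2 and 59.1 CPM in dual-treated mice. It fell in LPS mice (-1.29, SE 0.15, adjusted p 5.25e-05) and exceeded LPS levels in dual-treated mice (2.42, SE 0.162, adjusted p 6.62e-06). Fcgrt, the neonatal Fc receptor, which pairs with B2m without holding a peptide, fell in LPS mice (-1.53, SE 0.132, adjusted p 8.32e-06). H2-Q10 rose the most of this list (3.18, SE 0.246, adjusted p 4.66e-06), and H2-M3 rose too (1.58, SE 0.184, adjusted p 5.29e-05).

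Among 12 peptide loading and trimming partners 8 rose and 2 fell in LPS mice (median 0.53), 2 rose and 0 fell in dual-treated against control mice (0.13), and 3 rose and 5 fell in dual-treated against LPS mice (-0.33). By library size alone 4 rose and 2 fell in LPS mice, and 3 rose and 3 fell in dual-treated against LPS mice. The rises against LPS mice numbered 1 to 3 with 1 mouse left out and 1 without LPS 6 and 7. Tpp2, a cytosolic peptidase, rose (1.11, SE 0.111, adjusted p 2.12e-05), as did Tapbpl, a relative of tapasin (1.07, SE 0.154, adjusted p 0.000208), while the peptidase Nrdc fell (-0.48, SE 0.101, adjusted p 0.00223). Lap3, an aminopeptidase, rose (0.94, SE 0.106, adjusted p 4.38e-05), and the chaperone Canx fell (-0.32, SE 0.108, adjusted p 0.0255), a call lost without control 1, control 2, LPS 6 or LPS 7. Of 10 proteasome activators and assembly factors 8 rose and 1 fell in LPS mice (0.87), 2 rose and 0 fell in dual-treated against control mice (0.27), and 1 rose and 7 fell in dual-treated against LPS mice (-0.66), the rises over control falling to 0 with any 1 mouse of those groups left out. These rises over control in dual-treated mice numbered 4 by library size alone. Psme1 and Psme2, which form the PA28 cap of the proteasome, rose in LPS mice by 1.39 (SE 0.137, adjusted p 1.9e-05) and 1.71 (SE 0.174, adjusted p 2.28e-05). Psme2b had the greatest rise of the list (1.81, SE 0.239, adjusted p 0.00012). The assembly chaperone Psmg2 fell (-0.78, SE 0.164, adjusted p 0.0022), and Psmg3 gave -0.28 (SE 0.19, adjusted p 0.215).

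The constitutive partners of the inducible subunits rose as well. Psmb5 rose by 0.80 (SE 0.143, adjusted p 0.000839), Psmb6 by 0.76 (SE 0.131, adjusted p 0.000676) and Psmb7 by 1.03 (SE 0.134, adjusted p 0.000108) in LPS mice, so the 3 of 3 had a median of 0.80. Against controls, dual-treated mice had a list median of 0.32 with 1 of 3 higher, Psmb5 (0.55, SE 0.157, adjusted p 0.0415), and 0 of 3 with 1 mouse of those groups left out. Against LPS mice the list median was -0.51, with 2 of 3 lower (1 to 3 with 1 mouse left out), and by library size alone it was -0.17, with 1 of 3 lower. Of the other 11 core subunits 10 rose in LPS mice (1.12), 9 rose in dual-treated against control mice (0.56) and 10 fell in dual-treated against LPS mice (-0.52), with 0 called in the opposite directions. These counts were unstable where they involve the dual-treated mice: 1 to 8 rose over control with 1 mouse left out, and 4 fell and 1 rose against LPS mice by library size alone. Psma2 was highest by fold change, with 1.50 in LPS mice (SE 0.119, adjusted p 5.37e-06), followed by Psma6 (1.49, SE 0.136, adjusted p 1.2e-05) and Psma5 (1.27, SE 0.116, adjusted p 1.21e-05). The lowest were Psma4, which rose (0.83, SE 0.115, adjusted p 0.000166), and Psma1, with 0.25 (SE 0.107, adjusted p 0.0633).

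Of 27 genes of interferon-gamma signalling and class I transcription factors 19 rose and 5 fell in LPS mice (median 0.79), 6 rose and 1 fell in dual-treated against control mice (0.10), and 6 rose and 19 fell in dual-treated against LPS mice (-0.71). By library size alone 18 rose and 5 fell in LPS mice (0.50), and 6 rose and 14 fell in dual-treated against LPS mice (-0.38). Ifng itself had few counts, with 2, 1 and 3 in controls, 93, 41 and 8 in LPS mice, and 0 and 5 in dual-treated mice. It rose in LPS mice (4.79, SE 1.05, adjusted p 0.00283) and fell in dual-treated against LPS mice (-4.57, SE 1.21, adjusted p 0.00935), and these counts leave the size of both differences uncertain. Socs1, an inhibitor of interferon signalling that interferons induce, stood at 4.75, 5.54 and 5.52 CPM in controls, 150, 81.5 and 94.6 CPM in LPS mice, and 5.99 and 4.92 CPM in dual-treated mice. Its rise in LPS mice was 4.37 (SE 0.24, adjusted p 9.57e-07), and dual-treated mice against controls gave 0.05 (SE 0.267, adjusted p 0.928). Irf1, a transcription factor of class I genes, stood at 124, 140 and 146 CPM in controls, 1122, 715 and 802 CPM in LPS mice, and 110 and 120 CPM in dual-treated mice. It rose by 2.68 in LPS mice (SE 0.175, adjusted p 2.04e-06), and in dual-treated against control mice the value was -0.26 (SE 0.186, adjusted p 0.394). In the dual-treated mice Socs1 overlapped controls and Irf1 lay below them, while Tap1, Psmb8 and Nlrc5 lay above controls. Stat2, a transcription factor of interferon signalling, rose by 2.97 in LPS mice (SE 0.183, adjusted p 1.58e-06). Irf2, a factor of the same family as Irf1, fell in LPS mice (-1.65, SE 0.155, adjusted p 1.42e-05), as did Creb1 (-1.21, SE 0.102, adjusted p 7.71e-06). Socs3, a relative of Socs1, rose (3.13, SE 0.17, adjusted p 8.97e-07).

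MHC class II presents peptides from outside the cell. Of its 10 tested genes 1 rose and 5 fell in LPS mice (median -0.34), 0 rose and 1 fell in dual-treated against control mice (-0.42), and 2 rose and 4 fell in dual-treated against LPS mice (0.16). By library size alone 0 rose and 5 fell in LPS mice (-0.65), without LPS 6 and 7, 3 rose and 2 fell (0.04), and with any 1 mouse left out 0 to 3 rose and 2 to 4 fell, so the class II count has no settled direction. In dual-treated against LPS mice 0 to 3 rose and 1 to 4 fell with 1 mouse left out, 4 rose and 3 fell by library size alone (0.50), and the median was -0.23 without LPS 6 and 7. Cd74, the invariant chain, was the 1 that rose, at 534, 425 and 508 CPM in controls, 1415, 907 and 628 CPM in LPS mice, and 559 and 281 CPM in dual-treated mice (1.01, SE 0.312, adjusted p 0.0167). That call was lost by library size alone and without control 2 or LPS 1. H2-Ab1 gave 0.53 (SE 0.242, adjusted p 0.0764) and H2-Aa 0.38 (SE 0.22, adjusted p 0.151). H2-Eb2 (-2.72, SE 1.02, adjusted p 0.0385) and H2-Oa (-1.63, SE 0.604, adjusted p 0.0364) fell, with at most 35 counts in any control or LPS library. The H2-Eb2 call was lost without control 1, 2 or 4 or LPS 1 or 6, and the H2-Oa call without control 1, 2 or 4 or LPS 6. Of 13 tested genes listed as receptors that read class I, or as relatives of these, 5 rose and 1 fell in LPS mice (0.46), 4 rose and 0 fell in dual-treated against control mice (1.16), and 4 rose and 2 fell in dual-treated against LPS mice (0.19), with Klra3 too low to test. By library size alone 5 rose and 2 fell in LPS mice (0.16), and 6 rose and 2 fell in dual-treated against LPS mice (0.52). Lilrb4b had the greatest rise in LPS mice (4.18, SE 0.172, adjusted p 3.39e-07), followed by Pira2 (2.82, SE 0.371, adjusted p 0.000118) and Lilrb4a (1.77, SE 0.111, adjusted p 1.71e-06). The Lilrb4 pair encodes gp49 receptors, relatives of Pirb that are not known as class I receptors. Klrd1, which encodes CD94 of NK cells, fell in LPS mice (-3.88, SE 0.487, adjusted p 8.52e-05), and Klra8 gave -0.97 (SE 0.672, adjusted p 0.227). Pirb, an inhibitory receptor of myeloid cells, stood at 21.5, 16.4 and 21.4 CPM in controls, 34.7, 45.7 and 35.2 CPM in LPS mice, and 145 and 149 CPM in dual-treated mice, so it was highest where class I was intermediate (2.89 over control, SE 0.155, adjusted p 1.46e-05).

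Genes outside the 10 whose pattern was most like theirs were found over all 8 libraries by the root mean square difference between a gene's log2 change from its control mean and the median of the 10 (0.5 CPM added), among 10381 tested genes with a mean of at least 10 CPM. The 10 nearest were Cd44 (0.0697), Eif6 (0.118), Psme2 (0.136), Sp110 (0.137), Glipr2 (0.138), Trim30d (0.139), Def6 (0.139), C1ra (0.142), Ppp1r18 (0.146) and H2-M3 (0.148). The candidates had a median of 1.15. The 10 class I genes themselves ranged from 0.126 for H2-D1 to 1.3 for Tap1, so by this measure Tap1 was no nearer their median than the median candidate. The measure counts the size of a change as well as its shape. Tap1 changed by 4.02, 3.79 and 3.66 in LPS 1, 6 and 7, where the median of the 10 was 1.96, 1.74 and 1.42. In dual-treated mice 2 and 5 Tap1 changed by 1.19 and 0.66, against 0.89 and 0.76.

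Markers of cell types that carry class I moved as well, and their part in the class I result was not tested. All 13 neutrophil genes rose in LPS mice and 8 of 13 in dual-treated against control mice, with summed levels of 350, 277 and 199 CPM in controls, 2824, 3704 and 2543 CPM in LPS mice, and 2099 and 2597 CPM in dual-treated mice, the most abundant by CPM being S100a9 in LPS and dual-treated mice and Ltf in controls. Against LPS mice 4 neutrophil genes were higher and 5 lower in dual-treated mice, with 1 to 4 higher when 1 mouse was left out, and 1 higher and 4 lower without LPS 6 and 7. All 5 general leucocyte genes rose in LPS and in dual-treated mice over controls, with sums of 330, 263 and 297 CPM in controls, 686, 753 and 508 CPM in LPS mice, and 737 and 986 CPM in dual-treated mice, the most abundant by CPM being Laptm5 in controls and LPS mice and Coro1a in dual-treated mice, where 3 were higher and 1 lower than in LPS mice. Of 13 macrophage and monocyte genes 3 rose and 4 fell in LPS mice and 9 rose in dual-treated against control mice, while 9 were higher and 1 lower in dual-treated than LPS mice, with sums of 1045, 745 and 988 CPM in controls, 1661, 1416 and 924 CPM in LPS mice, and 1810 and 2517 CPM in dual-treated mice, Chil3 being the most abundant by CPM in each group. Endothelial genes fell for 6 of 9 in LPS mice and 3 of 9 in dual-treated against control mice, 1 rising in the latter, while 5 were higher and 0 lower in dual-treated than LPS mice, with sums of 3950, 4537 and 4502 CPM in controls, 2404, 2014 and 1919 CPM in LPS mice, and 3806 and 4127 CPM in dual-treated mice, the most abundant by CPM being Calcrl in controls, Cdh5 in LPS mice and Pecam1 in dual-treated mice. Of 14 epithelial genes 6 rose and 5 fell in LPS mice (5 and 8 by library size alone, 5 and 2 without LPS 6 and 7) and 3 fell in dual-treated against control mice (1 to 4 with 1 mouse left out), while 2 were higher and 6 lower in dual-treated than LPS mice, with sums of 70154, 71595 and 77004 CPM in controls, 99524, 80417 and 74269 CPM in LPS mice, and 44614 and 57915 CPM in dual-treated mice, Scgb1a1 being the most abundant by CPM in each group. Against LPS mice 4 epithelial genes were higher and 5 lower in dual-treated mice by library size alone, and the list median moved from -0.31 to 0.03. No marker of these 5 lists was at 3 counts or fewer in every library.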

How the data were processed

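The authors trimmed reads with Trim Galore, aligned them to GRCm39 with HISAT2 2.2.1 and counted them per gene with featureCounts 2.0.1, and the values used are the deposited raw counts per library. Symbols came from GENCODE M39 by Ensembl identifier, with 54749 of 55416 identifiers matched and the other 667 holding 0.0533% of counts. Counts were fitted in R 4.3.3 with edgeR 4.0.16 (filterByExpr by group, TMM scaling, quasi-likelihood test, 5 residual degrees of freedom), with 1 factor for the 3 groups in 1 fit of 8 libraries and p-values adjusted over 18560 genes. DESeq2 1.42.0 was an alternative. The sources state neither the strand setting nor how reads with several alignments were counted, and 30.6% of 150-base windows of Psmb9, 16.8% of H2-D1, 16.6% of Tapbp, 8.84% of H2-K1, 7.43% of Tap1 and 0.522% of Tap2 occur in transcripts of other genes. From each other list the genes to be named were its 3 highest and 2 lowest log2 fold changes in LPS against control mice, and those named beyond that (Stat2, Irf1, Pirb) were chosen after their values were seen. Marker genes were named as the most abundant of their list or as checks of the tissue, and 10 genes by likeness of pattern. Another gene's result is not reported here. The members and lists were chosen with earlier results of these data known.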

Additional observations from a re-analysis of the deposited data

How the results depend on the processing

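The 10 class I genes rose in LPS against control mice under every alternative run, with 0 calls in the opposite direction, and the median log2 fold change was 1.42 by library size only, 1.97 without both LPS 6 and 7, and 1.58 to 1.86 leaving out 1 mouse. In dual-treated against control mice the count was 3 or 4 leaving out 1 control. It was 1 under the study criterion or with a fold change over 2 and an adjusted p under 0.05. The median was 0.73 to 0.86 leaving out 1 mouse. In dual-treated against LPS mice the count was 6 by library size only, where 17.4% of all tested genes fell. It was 5 under either fold criterion and 8 to 10 leaving out 1 LPS mouse. The median was -0.72 by library size only, -1.30 without both LPS 6 and 7, and -1.22 to -0.93 leaving out 1 mouse. Shares of all tested genes called with 1 mouse left out, or by fold change with adjusted p, are not given. Those counts therefore cannot be set beside them. The ratio of Psmb9 over Psmb6 in dual-treated against LPS mice was -0.06 to 0.21 leaving out 1 mouse, and that of Psmb10 over Psmb7 -0.14 to 0.06, each reversed once, without dual-treated mouse 5 (-0.06) and without dual-treated mouse 2 (0.06). The causes were not tested. Of 1606 alternative values, among them counts, medians and ratios that carry no call, 1461 were rated the same. Of the rest, 129 lost a call, 2 reversed and 14 moved. Counts of 7 or 8 of the 10 genes were rated the same although calls had been lost. Leaving out both LPS 6 and 7 was planned, while the alternatives for genes of the other lists were added after seeing the data. With 1 dual-treated or 1 LPS mouse left, the lone mouse was assumed to vary like the others. No paired analysis was run, because the methods describe a random division of mice into groups and the labels name no pairs. Depth was not varied. With 2 dual-treated mice the smallest differences called (0.47 for Tap2 over control, -0.43 for Psmb9 under LPS mice) lay near the threshold.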

Other observations

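The remaining marker lists give the setting in which the class I genes were measured, and their part in the class I result was not tested. Of 7 dendritic cell genes 1 rose and 5 fell in LPS mice and 4 fell in dual-treated against control mice (2 or 3 with 1 mouse left out), 2 were higher and 3 lower in dual-treated than LPS mice, and in LPS mice 3 fell without LPS 6 and 7, with summed levels of 124 to 132 CPM in controls, 72.8 to 106 CPM in LPS mice, and 83.8 and 72.8 CPM in dual-treated mice, the most abundant by CPM being Clec9a in controls, Ccr7 in LPS mice and Zbtb46 in dual-treated mice. The list of T and NK cells is not confined to CD8 T cells and NK cells, and it holds Cd4. Of its 10 genes 2 rose and 2 fell in LPS mice and 1 rose in dual-treated against control mice. In dual-treated against LPS mice 2 were higher and 2 lower. The sums of these T and NK cell genes were 21.8 to 28.1 CPM in controls and 58.6, 49.1 and 23.9 CPM in LPS 1, 6 and 7. They were 39.1 and 77.8 CPM in dual-treated mice 2 and 5. Gzma, a granule protease, was their most abundant gene by CPM in each group, and the low sums leave these cells thinly measured at this depth. In dual-treated against LPS mice 3 of these genes were higher and 1 lower by library size alone. The list median there was -0.10 with all mice, 0.23 by library size alone and -0.38 without LPS 6 and 7. With 1 mouse left out 1 to 3 of them rose and 0 to 2 fell in LPS mice, by library size alone 1 rose and 3 fell, and without LPS 6 and 7, 2 rose and 0 fell. Of 6 B cell genes 2 fell in LPS mice (1 without LPS 6 and 7) and 1 rose in dual-treated against control mice (0 to 2 with 1 mouse left out), 3 were higher in dual-treated than LPS mice, and the sum was 1371 CPM in dual-treated mouse 2 against 97.6 to 135 CPM in the other 7 libraries. Ighm alone made up 1294 CPM of it. Against LPS mice 4 B cell genes were higher in dual-treated mice by library size alone. The list median in that comparison was 1.37 with all mice and 1.20 without LPS 6 and 7. Of 8 fibroblast and smooth muscle genes 2 rose and 2 fell in LPS mice (1 to 3 each way with 1 mouse left out, 0 and 4 by library size alone, 0 and 1 without LPS 6 and 7) and 1 fell in dual-treated against control mice, while 3 were higher and 3 lower in dual-treated than LPS mice, with sums of 1040 to 1483 CPM over all libraries, Pdgfra being the most abundant by CPM in each group. Of 6 red blood cell genes 5 fell in dual-treated against control mice and 6 in dual-treated against LPS mice, with sums of 1734, 3910 and 2786 CPM in controls, 3288, 1885 and 1469 CPM in LPS mice, and 426 and 382 CPM in dual-treated mice, Hbb-bs being the most abundant by CPM in each group.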
